A study of Homo sapiens with 8 samples.

Results

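Potassium channel genes were examined in Hs578T, an established human breast cancer line of mesenchymal type without estrogen receptor. The control cells grew for 48 hours in 5 mM glucose (low glucose) and the treated cells for as long in 25 mM glucose (high glucose), which stands for hyperglycemia. Total RNA of 4 replicates per group was sequenced, 8 libraries in all. The study's methods describe conditioning in low glucose and medium without serum for such cultures, and the labels give these libraries no control for osmolarity. Whether the replicates were grown separately is not stated, and the p values therefore reflect variation among 4 libraries per group that may be technical. Members were the rows of the deposited table whose symbol starts with KCN, followed by further letters, a number and at most 1 closing letter, and antisense transcripts were left out. This rule found 70 of 21077 genes. Of these, 33 reached 0.5 CPM (reads relative to the size of the library, as scaled by the authors) in at least 2 libraries, as did 15570 genes of the whole table, and these 33 are described here. The rule uses symbols and no measured value, but it was chosen with earlier results of these data known. The rule would take in the KCNA family of Kv1 pores, but found no row of it.

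Potassium channels let potassium ions pass along their gradient across the membrane, which sets the resting potential and bears on calcium entry, cell volume and proliferation. Inward rectifiers and two-pore domain channels stay open near the resting potential, calcium-activated channels open when cytosolic calcium rises, and voltage-gated channels open on depolarization. Auxiliary subunits form no pore, and alter the gating, the assembly or the surface density of the pores with which they assemble.

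Individual members moved in both directions in high glucose. KCNJ2, the inward rectifier Kir2.1, had less than 1 CPM in each low-glucose library and reached 19.6 CPM ± 0.904 in high glucose (SD, n = 4). KCNN4, the calcium-activated channel KCa3.1, and KCNK2, the two-pore channel TREK-1, rose 2.25-fold and 1.98-fold. KCNG1 and KCNS3, which encode modifier subunits of voltage-gated channels, fell, as did the most abundant members, KCNMA1 and KCNE4. In all, 13 of the 33 genes were higher in high glucose (39.4%, against 35.7% of all genes tested), 8 were lower (24.2%, against 37.2%), and 12 did not pass the test (limma, FDR under 0.05). The 21 calls were 63.6% of the members, against 72.9% of all genes, so the share of changed genes was no higher among the members than in the table. With libraries scaled to equal totals in place of the deposited scaling, the median of all genes moved up by 0.20 (log2), 16 members were higher and 7 were lower, and 62.8% of all called genes were higher, against 48.9% with the deposited scaling. In RNA of a whole culture, fewer cells that express a gene and less of its RNA per cell cannot be told apart. A change of at least 2-fold on the log2(CPM + 1) scale passed the test in 7 of the 33 members, against 17.1% of all genes. This scale understates the change of low genes, so that KCNJ8, with a ratio of the means of 2.59, was not counted. The groups did not overlap in 22 members (66.7%, against 66.7% of all genes). The median log2 fold change was 0.25 over the 33 members and 0.00 over all genes, and the median size of the change, in either direction, was 0.57 against 0.48. The median level of a member was 2.25 CPM, against 20.1 CPM for all genes tested.

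**Figure D1:**
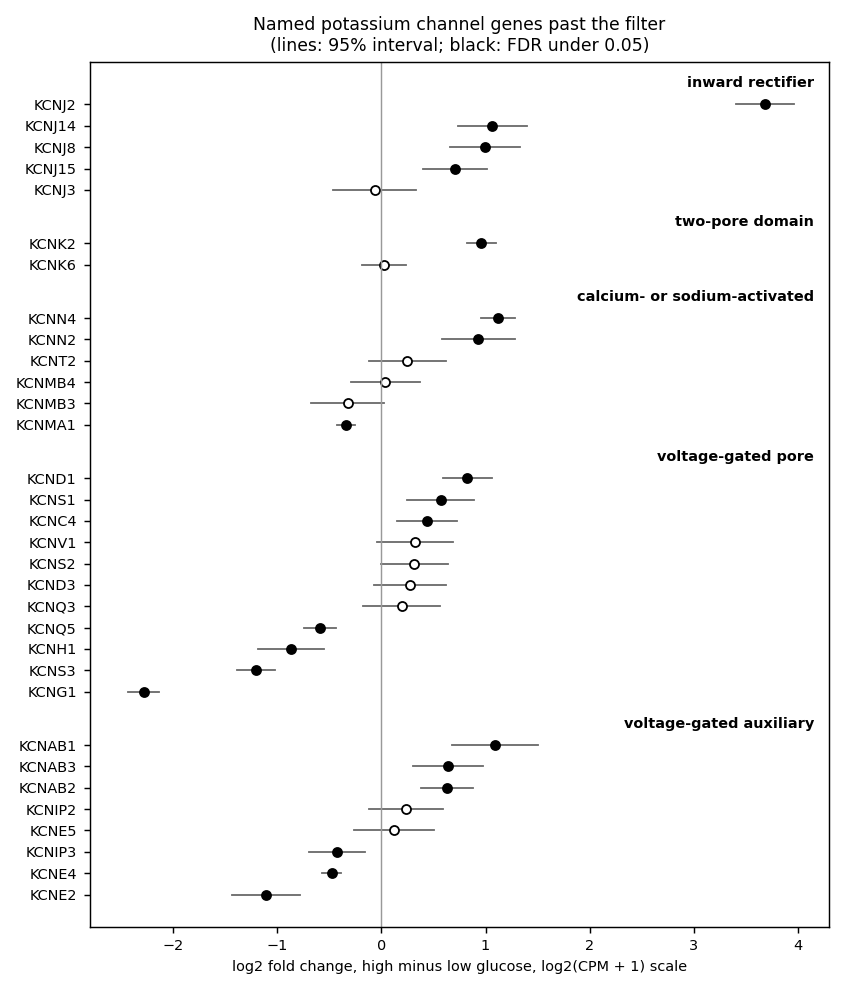
Log2 fold change (high minus low glucose, log2(CPM + 1) scale, x axis) of the potassium channel genes past the filter that are named in the text, grouped by family, with 95% intervals as lines and FDR under 0.05 as filled points. KCNJ2 stands apart at 3.69, and KCNG1 has the lowest value at -2.28. Of the 5 inward rectifiers, 4 are filled and to the right of 0, where 35.7% of all genes tested were called higher.

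The filter bears on these counts. A total of 21 members passed it through both groups, and of these 9 were higher and 7 lower. A further 10 passed through the high-glucose libraries only, and the 4 of them that were called (KCNAB1, KCNAB3, KCNN2 and KCNS1) were all higher, in the group through which they passed. KCNE2 passed through low glucose only. Among the 11 members with a mean of at least 10 CPM in 1 group, 5 were higher, 5 were lower and KCNK6 was not called. At 50 CPM or more, 1 was higher (KCNK2) and 3 were lower (KCNMA1, KCNE4 and KCNG1). Among all genes tested, at any level, 35.7% were higher and 37.2% lower. The shares of all genes by filter route or by level were not computed, so these counts show nothing particular to the members. The 33 members together had 625.2 CPM ± 9.32 in low glucose (614.8 to 636.9 over the libraries) and 534.2 CPM ± 3.89 in high glucose (530.3 to 538.4) with the deposited scaling. With equal totals these sums were 576.4 ± 10.1 (566.9 to 590.1) and 583.7 ± 8.17 (573.4 to 593.2), and the groups overlapped.

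The libraries held 10244900 to 11956677 estimated counts, so that 1 read equals 0.0867 to 0.118 CPM and 3 reads equal 0.260 to 0.354 CPM. Where a group's mean lies at or below 3 reads, no ratio of the means is given, and the log2 fold change depends on the pseudocount of 1 CPM. All 5 mesenchymal markers of the line (VIM, FN1, CDH2, SPARC and AXL) were present in each library, with a summed level of 54660 to 58841 in low and 32544 to 33821 CPM in high glucose. VIM, CDH2 and AXL were lower in high glucose. FN1 was lower too, with the deposited scaling (-0.78) and with equal totals (-0.54). Quantile normalization gives a gene with the same rank in each library the same value, so the 0.00 of FN1 there is uninformative. SPARC was lower (-0.15) only with the deposited scaling (0.09 with equal totals, 0.36 with quantile normalization). ESR1, PGR, EPCAM and KRT19 were below the filter, and EPCAM was at 0 in each library. The 7 luminal or epithelial markers summed to 274.2 to 291.3 CPM at 5 mM and 110.6 to 128.6 CPM at 25 mM glucose, nearly all of it KRT8 and KRT18, which were lower in high glucose, and CDH1 was not called. Of the cell types in which many of these channels are best known, the 3 endothelial markers summed to 1.95 to 2.77 in low and 6.21 to 7.80 CPM in high glucose with CDH5 at 0 in each library, and the 3 neuronal markers summed to 1.01 to 1.63 and 1.98 to 3.11 CPM with RBFOX3 at 0 in each high-glucose library. The endothelial markers PECAM1 and VWF and the neuronal marker SNAP25 were higher in high glucose, and the part of these markers in the results was not tested. The 2 muscle markers with a row summed to 0.650 to 0.885 in low and 0 to 0.360 CPM in high glucose. The 3 leukocyte markers with a row summed to 180.4 to 189.3 and 92.9 to 98.2 CPM, most of it CD68, while PTPRC, the defining one, had a mean of 0.0835 CPM at 5 mM and 0.714 at 25 mM glucose. CD68 and the muscle marker ACTC1 were lower in high glucose, PTPRC was higher and CD14 was not called.

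Promoter sequences are shown for 3 members that were called and that have an entry in the RefSeq table of GRCh38.p14 used here, since 2 of them rose and 1 fell. KCNJ2 lies on chromosome 17 at 70169532 to 70180044, KCNN4 on chromosome 19 at 43766533 to 43780973 and KCNQ5 on chromosome 6 at 72622064 to 73198853, and all 3 are protein-coding genes. Each line holds the 250 bases before the annotated start, 5′ to 3′ on the strand of the gene, at chr17:70169282-70169531 (plus strand), chr19:43780974-43781223 (minus strand) and chr6:72621814-72622063 (plus strand). Capitals mark the E-box CACGTG, a motif of basic helix-loop-helix factors such as MYC, and the GC box GGGCGG of SP1 or its complement CCGCCC.
KCNJ2: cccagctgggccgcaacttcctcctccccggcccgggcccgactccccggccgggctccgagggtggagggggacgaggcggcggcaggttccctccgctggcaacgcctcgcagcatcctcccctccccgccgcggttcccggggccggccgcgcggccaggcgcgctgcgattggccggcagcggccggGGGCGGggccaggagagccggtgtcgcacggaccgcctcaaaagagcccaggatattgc
KCNN4: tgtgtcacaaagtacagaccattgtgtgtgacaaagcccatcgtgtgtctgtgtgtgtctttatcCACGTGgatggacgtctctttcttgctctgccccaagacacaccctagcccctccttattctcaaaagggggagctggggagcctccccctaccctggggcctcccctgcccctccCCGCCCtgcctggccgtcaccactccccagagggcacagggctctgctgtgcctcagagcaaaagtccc
KCNQ5: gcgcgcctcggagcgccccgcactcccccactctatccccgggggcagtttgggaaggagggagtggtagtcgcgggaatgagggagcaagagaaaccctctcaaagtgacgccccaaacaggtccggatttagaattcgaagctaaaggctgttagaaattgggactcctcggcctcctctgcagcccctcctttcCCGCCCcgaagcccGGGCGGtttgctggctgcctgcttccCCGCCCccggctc
The KCNJ2 window was 77.6% G or C and held 1 GC box, the KCNN4 window was 60% G or C with 1 E-box and 1 GC box, and the KCNQ5 window was 64% G or C with 3 GC boxes. The median G or C content of all promoters in the table was 58%. Promoters were found for 24 of the 33 members, 38 in all, since a gene can have several starts. On either strand, the E-box was in 4 of these 38 promoters (10.5%, against 6.34% of all promoters). It was in 4 of the 19 promoters of members called higher, namely 1 of KCNN4, 1 of KCNAB2 and 2 of KCNAB1, and in 0 of the 8 promoters of members called lower. The GC box was in 19 of 38 (50%, against 42.6%), with 7 of 19 for members called higher and 6 of 8 for those called lower. For the E-box and the GC box, the counts by direction rest on few promoters, some of them of the same gene. No difference between the directions was tested. CCAAT was in 15 of 38 (against 32.0% of all promoters), TATAAA in 4 of 38 (against 10.7%), TGATGCAA in 1 of 38 (against 0.772%) and TGACGTCA in 0 of 38 (against 1.65%). These matches describe letters in a window, and binding was not measured.

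Inward rectifiers, which pass potassium more readily into the cell than out of it, had 12 members, and 5 passed the filter. Of these, 4 were higher, 0 were lower and 1 was not called. Among all genes tested, 35.7% were higher and 37.2% lower. The counts of this and the following families rest on few genes and are to be read beside these shares. The summed mean level of the 5 inward rectifiers was 4.21 CPM in low glucose against 29.0 in high glucose. KCNJ2 gave most of that sum. Its value was 0.553, 0.675, 0.867 and 0.354 CPM in the low-glucose libraries and 19.8, 20.7, 18.6 and 19.3 CPM in the high-glucose libraries. The groups were far apart, with 22 estimated reads in all in low and 845 in high glucose. The mean was 32.0-fold higher in high glucose, and the log2 fold change of 3.69 ± 0.130 (SE; limma adjusted p = 1.32e-12) ranked 6 among all genes tested. KCNJ2 encodes the channel that holds the resting potential of heart and skeletal muscle near the potassium equilibrium.

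KCNJ14, a further member of the Kir2 group (Kir2.4), was at 1.11, 0.699, 0.983 and 0.640 in low and 2.21, 3.32, 2.65 and 3.42 CPM in high glucose. Each high-glucose library was above each low-glucose one, with a log2 fold change of 1.07 ± 0.156 (limma adjusted p = 1.62e-05). The gene overlaps GRWD1, and without known strand the reads of overlapping genes cannot be told apart. KCNJ8, the pore Kir6.1 of an ATP-sensitive channel, was at 1.77, 1.69, 2.06 and 1.18 in low and 4.59, 5.41, 3.72 and 3.60 CPM in high glucose (0.99 ± 0.157, limma adjusted p = 3.49e-05). KCNJ8 lies on chromosome 12 at 21764955 to 21774706 in GRCh38.p14, and the groups did not overlap. ABCC9, the sulfonylurea receptor that surrounds the Kir6.1 pore, was not called (18.0 against 16.9 CPM). KCNJ11, the other Kir6 pore, was below the filter, and ABCC8 was listed at 0. KCNJ15 (Kir4.2) rose from 0.785 ± 0.151 to 1.92 ± 0.281 CPM (SD, n = 4). KCNJ3, a G protein-gated rectifier, was not called (0.286 against 0.243 CPM, both near 3 reads). The remaining 7 members (KCNJ4, KCNJ5, KCNJ6, KCNJ10, KCNJ11, KCNJ12 and KCNJ13) stayed at or below 0.450 CPM in each library.

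**Figure D2:**
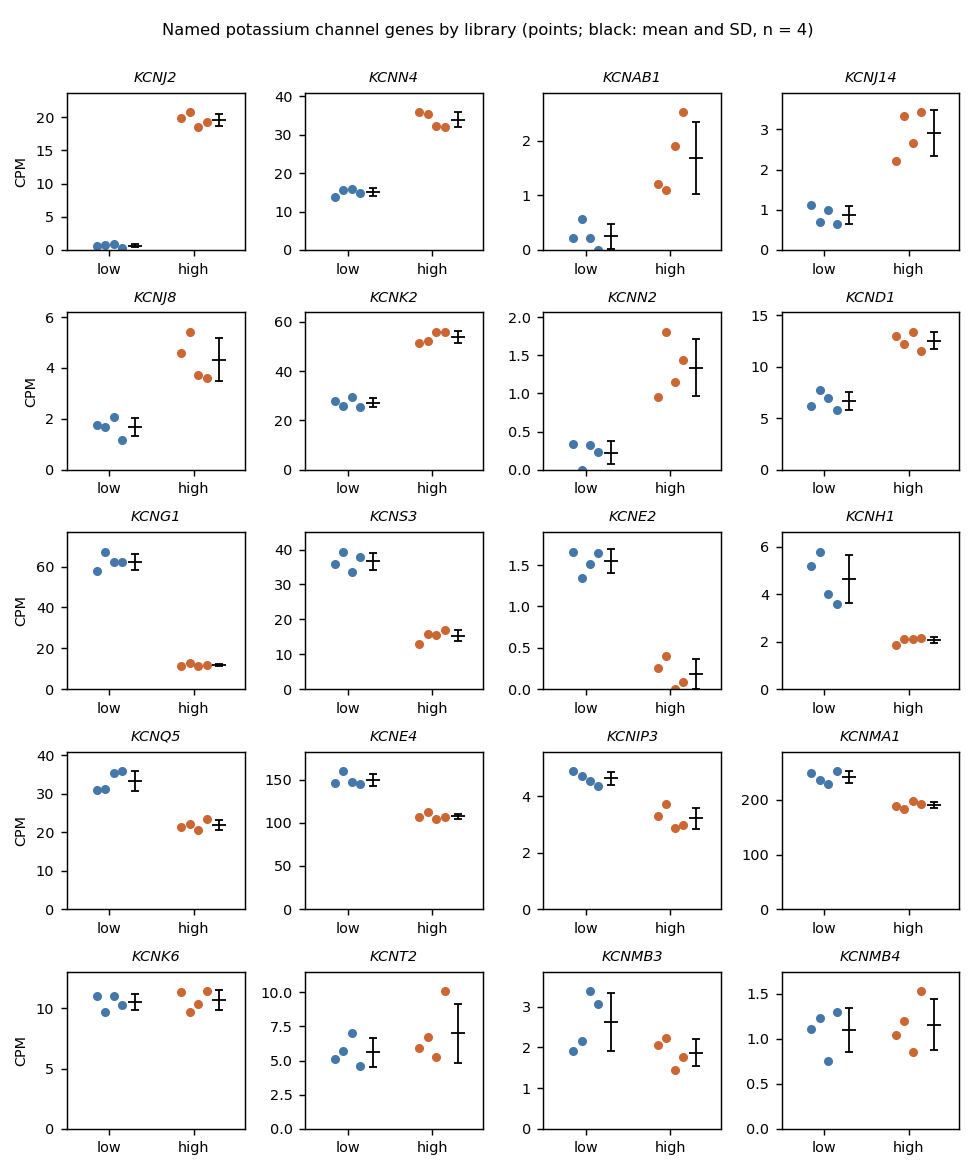
CPM (y axis, own scale in each panel) of 20 potassium channel genes in the 4 low-glucose and 4 high-glucose libraries (points), with the mean and SD (black, n = 4). The groups are separate in the upper 16 panels and overlap in KCNK6, KCNT2, KCNMB3 and KCNMB4.

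Two-pore domain channels, which carry the background potassium leak, had 8 members, of which KCNK2 and KCNK6 passed the filter. KCNK2 was at 27.8, 26.0, 29.7 and 25.4 in low and 51.6, 52.2, 55.8 and 55.7 CPM in high glucose. TREK-1, its product, is opened by membrane stretch, warmth and polyunsaturated fatty acids. The mean rose from 27.2 ± 1.95 to 53.8 ± 2.27 CPM (SD, n = 4), 1.98-fold, with a log2 fold change of 0.96 ± 0.0631 (limma adjusted p = 1.59e-09). KCNK2 is on chromosome 1 at 215005542 to 215237090. KCNK6 (TWIK-2) was at 11.1, 9.67, 11.1 and 10.3 in low and 11.4, 9.72, 10.4 and 11.4 CPM in high glucose. These ranges overlapped almost wholly, and the log2 fold change of 0.03 had a 95% interval of -0.18 to 0.24. KCNK6 overlaps YIF1B, and with equal totals it was called (0.25, limma adjusted p = 0.0312). The other members (KCNK1, KCNK3, KCNK5, KCNK12, KCNK13 and KCNK15) stayed at or below 0.382 CPM in each library, and KCNK5 was listed at 0 throughout.

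Calcium- or sodium-activated channels and their subunits had 11 members, and 6 passed the filter. Of these 2 were higher, 1 was lower and 3 were not called. KCNN4 was at 13.8, 15.6, 15.9 and 14.9 in low and 35.8, 35.5, 32.4 and 32.0 CPM in high glucose. KCa3.1 has an intermediate conductance, and calmodulin bound to it serves as its calcium sensor. The groups were far apart, and the mean rose from 15.1 ± 0.934 to 33.9 ± 2.01 CPM, 2.25-fold, with a log2 fold change of 1.12 ± 0.0746 (limma adjusted p = 1.90e-09).

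KCNN2, the small-conductance channel SK2, was at 0.332, 0, 0.325 and 0.236 in low and 0.953, 1.80, 1.15 and 1.44 CPM in high glucose. Its low-glucose values were at or below about 3 reads, and the high-glucose libraries were all above them (0.93 ± 0.164, limma adjusted p = 0.000108). KCNMA1, the pore of the large-conductance BK channel that opens with calcium and depolarization, moved the other way. It was at 248.8, 236.3, 230.1 and 252.2 in low and 189.2, 183.7, 197.6 and 192.2 CPM in high glucose. The groups did not overlap, and the mean fell from 241.9 ± 10.4 to 190.7 ± 5.80 CPM, with a log2 fold change of -0.34 ± 0.0399 (limma adjusted p = 1.41e-06). KCNMA1 spans chromosome 10 at 76869602 to 77637808. With equal totals its log2 fold change was -0.10 (limma adjusted p = 0.0343), and with quantile normalization -0.25.

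BK beta subunits shift the calcium sensitivity of that pore, and those that were tested, KCNMB3 and KCNMB4, were not called. KCNMB3 was at 1.91, 2.16, 3.38 and 3.05 in low and 2.05, 2.23, 1.45 and 1.76 CPM in high glucose, with overlapping groups and a 95% interval of the log2 fold change from -0.67 to 0.03. It overlaps PIK3CA and LRRFIP1P1, and it passed the test with quantile normalization (-0.51, limma adjusted p = 0.0113) and without low-glucose replicate 1 (-0.42, limma adjusted p = 0.0381). KCNMB4 was at 1.11, 1.24, 0.758 and 1.30 in low and 1.04, 1.20, 0.859 and 1.53 CPM in high glucose, with a 95% interval from -0.29 to 0.37. KCNT2, the sodium-activated channel Slick, was at 5.09, 5.73, 7.04 and 4.60 in low and 5.89, 6.71, 5.25 and 10.1 CPM in high glucose. Its high-glucose replicate 4 lay above the other libraries, and the 95% interval was -0.12 to 0.62. With equal totals, KCNT2 was called (0.46, limma adjusted p = 0.0265). KCNMB1, KCNMB2, KCNN1, KCNN3 and KCNU1 stayed at or below 0.270 CPM.

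Pore-forming genes of voltage-gated channels were the largest family, with 26 members, of which 12 passed the filter. Of these 3 were higher, 4 were lower and 5 were not called, and the summed mean level was 148.8 CPM in low glucose against 72.4 in high glucose. KCNG1 and KCNS3 carried most of that difference. Both encode electrically silent subunits, which form no working channel alone and assemble with other voltage-gated subunits. KCNG1 was at 57.7, 67.2, 62.0 and 62.0 in low and 11.5, 12.7, 11.6 and 12.1 CPM in high glucose. The mean was 5.19-fold lower in high glucose (62.2 ± 3.90 against 12.0 ± 0.543 CPM), with a log2 fold change of -2.28 ± 0.0680 (limma adjusted p = 2.09e-13), rank 52 among the falls of all genes. KCNG1 lies on chromosome 20 at 51003656 to 51023107, and no other RefSeq gene overlaps it.

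KCNS3 was at 35.8, 39.4, 33.7 and 37.7 in low and 13.1, 15.8, 15.5 and 17.1 CPM in high glucose. The groups were far apart, and the mean was 2.38-fold lower, with a log2 fold change of -1.20 ± 0.0850 (limma adjusted p = 3.78e-09). KCNS3 lies on chromosome 2 at 17877847 to 17932958. Of the 7 silent subunit genes, 5 passed the filter. KCNS1 rose from 1 estimated read in 1 of 4 low-glucose libraries to a mean of 0.532 CPM (limma adjusted p = 0.00306), and KCNS2 (0.227 against 0.533 CPM) and KCNV1 (0.109 against 0.399 CPM) were not called.

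Among the other voltage-gated pores, KCNQ5 (Kv7.5, a slow channel active near rest) was at 31.0, 31.1, 35.4 and 35.7 in low and 21.2, 22.1, 20.6 and 23.3 CPM in high glucose. The groups did not overlap, and the log2 fold change was -0.59 ± 0.0730 (limma adjusted p = 2.76e-06). With equal totals the fall of KCNQ5 was smaller (-0.35, limma adjusted p = 0.000565). KCNH1, the ether-à-go-go channel Kv10.1 that is expressed in many tumors, was at 5.17, 5.78, 3.99 and 3.61 in low and 1.87, 2.10, 2.12 and 2.17 CPM in high glucose (-0.86 ± 0.148, limma adjusted p = 8.09e-05). Its low-glucose values varied more than its high-glucose values and stayed above them. KCND1 (Kv4.1, a rapidly inactivating channel) moved the other way, with 6.20, 7.76, 6.93 and 5.78 in low and 13.0, 12.2, 13.4 and 11.5 CPM in high glucose. The log2 fold change of KCND1 was 0.82 ± 0.111 (limma adjusted p = 6.35e-06), and each high-glucose library was above each low-glucose library. KCNC4 (Kv3.4) rose from 3.70 ± 0.638 to 5.33 ± 0.503 CPM (limma adjusted p = 0.00897). KCND3 (0.398 against 0.694 CPM) and KCNQ3 (0.280 against 0.457 CPM) were not called. A further 14 members were below the filter, the highest value being 0.900 CPM for KCNH3, and 6 of them, KCNQ1, KCNH2, KCNF1 and KCND2 included, were listed at 0 in each library. Including KCNK5, 7 members were listed at 0 throughout, and none of 18 housekeeping genes was.

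**Figure D3:**
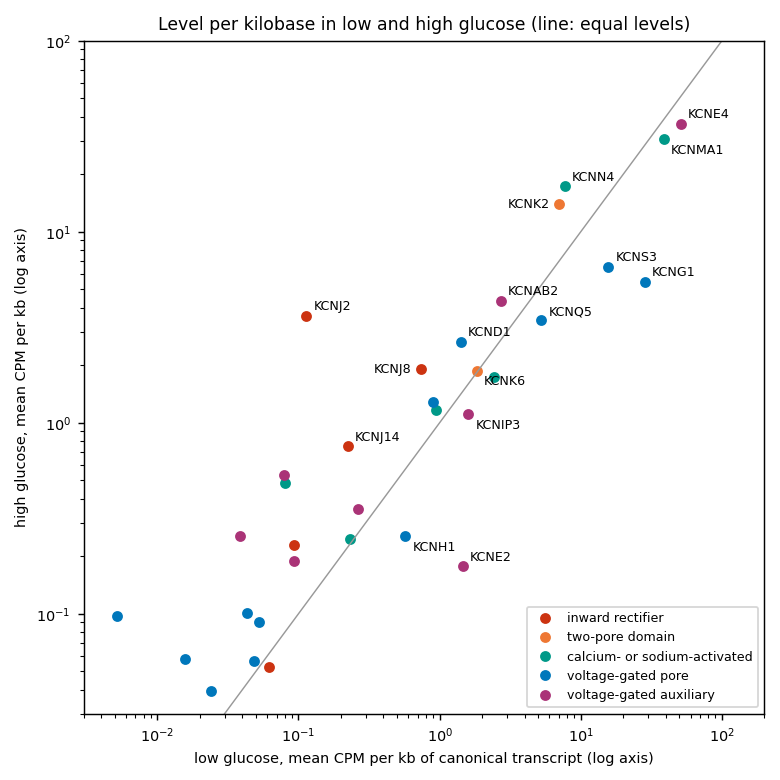
Mean CPM per kilobase of canonical transcript in low (x axis) and high glucose (y axis), both log axes, for the 33 members past the filter, colored by family, with a line of equal levels. KCNE4 and KCNMA1 are the highest in both groups, KCNJ2 is the farthest above the line among the labeled genes, and KCNG1 and KCNS3 lie below it.

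Auxiliary subunits of voltage-gated channels had 13 members, of which 8 passed the filter, with 3 higher, 3 lower and 2 not called. KCNE4, a single-pass subunit that inhibits several voltage-gated pores, was at 146.2, 159.4, 147.0 and 145.5 in low and 106.7, 112.1, 104.1 and 106.4 CPM in high glucose. The lowest low-glucose library was well above the highest high-glucose one, and the log2 fold change was -0.47 ± 0.0428 (limma adjusted p = 6.98e-08). With equal totals the fall of KCNE4 was smaller (-0.23, limma adjusted p = 0.000193). KCNE4 lies on chromosome 2 at 223052190 to 223055637. KCNE2, a related subunit that assembles with KCNQ1 and KCNH2 pores, was at 1.66, 1.35, 1.52 and 1.65 in low and 0.260, 0.401, 0 and 0.0901 CPM in high glucose (-1.11 ± 0.153, limma adjusted p = 8.37e-06). Its high-glucose values were near or below 3 reads, and both of these pores were listed at 0. KCNE2 is on chromosome 21 at 34364006 to 34371381.

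KCNIP3, a calcium-binding protein that modulates Kv4 pores and also represses transcription (DREAM), was at 4.87, 4.72, 4.55 and 4.36 in low and 3.29, 3.71, 2.86 and 2.97 CPM in high glucose. The groups did not overlap (-0.42 ± 0.125, limma adjusted p = 0.00689), but with libraries scaled to equal totals the call was lost (-0.23, limma adjusted p = 0.110). The 3 beta subunits are cytosolic proteins related to aldo-keto reductases that bind Kv1 pores, for which the rule found no row. All 3 were called higher, but KCNAB1 and KCNAB3 passed the filter through high glucose only, the group in which they were higher. KCNAB1 was at 0.221, 0.562, 0.217 and 0 in low and 1.21, 1.10, 1.91 and 2.52 CPM in high glucose, so that 9 reads in all were set against 73 (1.09 ± 0.193, limma adjusted p = 0.000109). KCNAB2, the most abundant of them, rose from 11.3 ± 1.18 to 18.2 ± 2.98 CPM (0.63 ± 0.117, limma adjusted p = 0.000166). KCNAB3 rose from 0.111 CPM, below 3 reads, to 0.737 CPM (limma adjusted p = 0.00187). KCNE5 (0.391 against 0.518 CPM) and KCNIP2 (0.224 against 0.459 CPM) were not called. KCNE1, KCNE1B, KCNE3, KCNIP1 and KCNIP4 were below the filter, and reads of KCNE1 and its near-identical copy KCNE1B cannot be assigned with certainty. With the BK beta subunits included, 17 members were auxiliary subunits, of which 10 passed the filter, 3 were higher and 3 were lower. Of the 46 pore-forming genes other than the silent subunits, 18 passed, 9 were higher and 3 were lower.

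The order of levels per kilobase changed with glucose. In low glucose the mean was highest for KCNE4 (51.3 ± 2.27 CPM per kb), followed by KCNMA1 (38.6 ± 1.66), KCNG1 (28.4 ± 1.78) and KCNS3 (15.6 ± 1.05), and these 4 did not overlap with one another. KCNN4 (7.70 ± 0.478) and KCNK2 (7.02 ± 0.504) came next and did overlap. In high glucose KCNE4 (36.8 ± 1.17) and KCNMA1 (30.5 ± 0.926) stayed first, and KCNN4 (17.3 ± 1.03) and KCNK2 (13.9 ± 0.585) followed without overlap. KCNS3 (6.57 ± 0.718) and KCNG1 (5.48 ± 0.248) overlapped with each other. KCNJ2, number 21 in low glucose at 0.114 CPM per kb, was number 8 in high glucose at 3.64 CPM per kb, where it overlapped with KCNAB2 (4.35) and KCNQ5 (3.43).

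**Figure D4:**
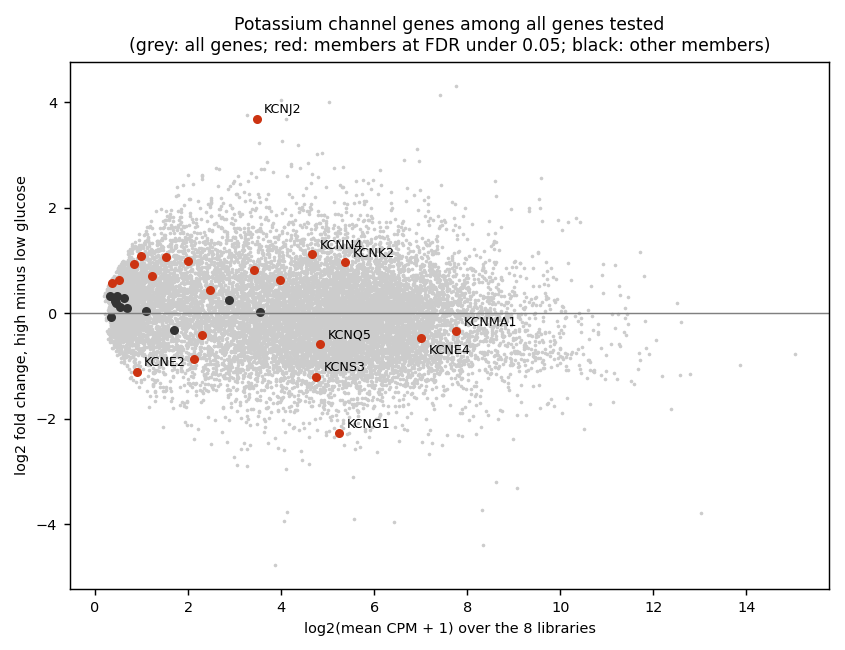
Log2 fold change (high minus low glucose, y axis) against the mean level over the 8 libraries (log2(mean CPM + 1), x axis) for all 15570 genes tested (grey), with members at FDR under 0.05 in red and the other members in black. Most members lie at low levels and within the cloud of all genes, with KCNJ2 near its upper edge.

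Genes that handle potassium outside the family were read from 5 lists with 60 genes, of which 33 were tested. Of these, 13 were higher, 12 were lower and 8 were not called, and with equal totals 16 were higher and 6 lower. With the deposited scaling, 35.7% of all genes tested were higher and 37.2% lower. The counts by list that follow are to be read beside these shares. Of 13 partner subunits of the channels, 6 were tested, with 3 higher and 1 lower. CALM2 and CALM3, whose product calmodulin is the calcium sensor of KCNN4 and KCNN2, were higher. CALM2 was at 349 ± 3.84 CPM at 5 mM and 682 ± 14.3 at 25 mM glucose (limma adjusted p = 4.94e-13), and CALM3 rose from 135 to 222 CPM. AMIGO1, an adhesion protein of the cell membrane, fell from 5.72 to 3.77 CPM (limma adjusted p = 0.0190), with overlapping groups, and was not called with equal totals (limma adjusted p = 0.136).

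Of 18 genes of Na,K-ATPase and related pumps, which build the potassium gradient, 6 were tested, with 3 higher and 2 lower. ATP1B3, a beta subunit, rose from 138 ± 6.15 to 644 ± 11.7 CPM (2.22, limma adjusted p = 7.72e-16) and ATP1B1 from 14.1 to 46.1 CPM (1.64). FXYD5, a regulator of the pump, fell from 237 to 152 CPM. Of 15 cation-chloride cotransporters and their kinases, 9 were tested, with 2 higher and 5 lower. SLC12A4 (106 against 42.7 CPM), a carrier of potassium and chloride out of the cell, fell, and OXSR1, a kinase that acts on such carriers, rose from 163 to 246 CPM. Of 9 other genes of potassium movement across membranes, by channels or by exchange, 7 were tested, with 3 higher and 3 lower. Among them were LETM1 (62.0 against 39.1 CPM, lower), TMEM38A (1.55 against 5.25 CPM, higher) and HCN2 (40.9 against 27.8 CPM, lower). All 5 genes of volume-regulated anion channels were tested, with 2 higher and 1 lower. LRRC8A, the obligatory subunit, rose from 30.7 to 55.1 CPM, LRRC8D rose from 27.5 to 44.0 CPM, and LRRC8E fell from 25.6 to 12.3 CPM.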

How the data were processed

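RNA-Seq of 8 Hs578T libraries (low or high glucose, 4 each, grouped by the treatment label) was used. The authors deposited 1 table of normalized signal for 21077 genes. In the submitters' processing notes, hg38 and edgeR are listed. The deposited signal was read as CPM with TMM factors, and that reading rests on the study's methods for its other cell lines and on column sums, which were 1017015 to 1229021. Aligner, counter, annotation and strand setting: not given in the sources used here. Only 71.2% to 73.8% of low values were whole reads within 0.005 read, so no count model was run. Depth was estimated from the value of 1 read, and its limits include no error other than that of counting.

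The filter kept genes that reached 0.5 CPM in 2 or more libraries. The log2(CPM + 1) of these genes was fitted with limma 3.58.1 under R 4.3.3 (trended variance prior), and a Benjamini-Hochberg FDR under 0.05 over 15570 genes was called. Fold changes on this scale understate the change of low genes. The design foresaw normalized values, and the fit was tested on simulated data. The members and lists were chosen with earlier results of these data known. Genes given by library were the 8 rising and 8 falling members with the largest change among those called, without overlap and with at least 1 CPM in 1 group, the 4 most abundant members, and the 4 most abundant not called; from each further list, the 3 called genes with the smallest p were taken, and AMIGO1, ABCC9 and ABCC8 were added after their values were seen. Transcript lengths are of GENCODE canonical transcripts (70 of 70 members matched), and positions and promoters are from RefSeq (69 of 70 positions). Alternatives covered pseudocount, filter, scaling, variance prior, weights, a replicate block and each library left out. A few genes that these rules select are counted but not reported here by name.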

Additional observations from a re-analysis of the deposited data

Results flagged for a closer look

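Within the groups of 4 libraries, 66 were examined for 1 library far from the other 3 (Dixon's test at 95%), and 4 were found, where chance gives about 1 in 20, or 3.3. KCNC4 in high-glucose replicate 3 was at 4.58 CPM, with the others at 5.49 to 5.63 CPM. KCND3 in the same library was at 0.382 CPM, with the others at 0.780 to 0.811 CPM. KCNE4 in low-glucose replicate 2 was at 159.4 CPM, with the others at 145.5 to 147.0 CPM. KCNS1 in low-glucose replicate 2 was at 0.112 CPM, which is 1 read, with the others at 0. Any group with a value in 1 library and 0 in the others is flagged, so the flag of KCNS1 carries no information. The chance figure assumes continuous values, which groups of a few reads do not have. Without low-glucose replicate 2, KCNE4 remained lower and KCNS1 higher in high glucose at FDR under 0.05 (limma). KCNC4 remained higher at FDR under 0.05 (limma) without high-glucose replicate 3. KCND3 was not called with or without high-glucose replicate 3.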

How the results depend on the processing

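Of the 21 members called, 20 had the same call under each of the 18 alternatives that tested them, and none changed direction. The exception was KCNIP3 with equal totals (-0.23, limma adjusted p = 0.110). Scaling to equal totals moved the median of all genes by 0.20 (log2), so that 62.8% of all calls and 69.6% of member calls (16 higher, 7 lower) were higher, against 48.9% and 61.9% in the report, and KCNK6 (0.25, limma adjusted p = 0.0312), KCNT2 (0.46, limma adjusted p = 0.0265) and KCNS2 were then also called. Members called numbered 10 to 16 higher and 7 to 9 lower over the alternatives. The filter of 1 CPM in 4 libraries tested 22 members, and no filter tested 63, of which KCNN3 (higher) and KCNK13 (lower) were called beside KCNS2. Fold changes of low genes depend on the pseudocount: that of KCNJ2 was 4.84 with 0.1 CPM and 2.13 with 5 CPM. KCNMB4, not called, was at -0.15 with quantile normalization, and from -0.045 (without low-glucose replicate 3) to 0.11 with 1 library left out, with -0.042 without high-glucose replicate 4. KCNK6, not called in the report, ranged from -0.0098 (without low-glucose replicate 2) to 0.068 with 1 library left out, with -0.0030 without high-glucose replicate 4. The largest adjusted p of KCNC4 under any alternative was 0.0498 (limma). The cause of these changes was not tested.

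Same-numbered libraries of the groups correlated at -0.03, 0.11, 0.01 and 0.08 in their deviations from the group means. These values show no clear pairing by number, but with 4 libraries per group they cannot exclude one. The fit with a replicate block gave 13 members higher and 8 lower, and 5602 genes higher and 5892 lower in all. Not every library correlated best with its own number. Members below about 0.35 CPM (3 reads) could not be measured at this depth.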
